A study of Mus musculus with 2 samples.

Results

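Rod photoreceptors that carried tag 2 were compared with those that carried tag 1 in a pool of sorted mouse retinal cells, and 336 of the 834 cell barcodes in the expression matrix were such rods (136 of tag 2 and 200 of tag 1). A barcode was taken as a rod where Sag, Pdc, Gngt1 and Gnat1 together held at least 1% of its unique molecular identifiers (UMIs, each counted as 1 captured RNA molecule) and the cone genes Arr3, Opn1sw, Opn1mw, Gnat2 and Pde6h together held less than 0.5%. Barcodes outside 200 to 2500 detected genes, or with over 18% of their UMIs from mitochondrial genes, were left out. By the same rule the whole series held 373 rods, and 24 of them carried tag 3.

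To ask how anchoring of heterochromatin to the nuclear envelope bears on gene expression in rods, the study electroporated the retinas of newborn mice with pCIG2 plasmids. The control plasmid expresses EGFP alone, and in the others EGFP is accompanied by lamin A or by Lbr, the lamin B receptor. Living EGFP+ cells were sorted from the adult retinas weeks later, each condition was stained with its own lipid-anchored tag oligonucleotide (MULTI-seq), and the cells were pooled for a single 10x Genomics run. The study used animals of both sexes, electroporation reaches a mosaic of retinal cells, and how many animals stood behind each tag is not known here. Neither the labels nor the methods state which tag marked which plasmid, so the groups are called tag 1 and tag 2 throughout. By the deposited calls 264 cells carried tag 1, 316 cells tag 2 and 41 cells tag 3. The methods list the same numbers for rods of the control, lamin A and Lbr plasmids, but no tag was named from that match. Levels of Lmna and Lbr in all 3 tags are given below.

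Most cells hold heterochromatin against the nuclear lamina through the A-type lamins encoded by Lmna and through Lbr, a receptor in the inner nuclear membrane. Mature mouse rods lack both tethers and gather heterochromatin in the centre of the nucleus, an arrangement known as the inverted nucleus. Rods detect dim light with a visual pigment that acts through the G protein transducin (Gnat1, Gnb1, Gngt1) and a phosphodiesterase (Pde6a, Pde6b, Pde6g) on cyclic nucleotide gated channels, and they pay for it with a very high rate of respiration in mitochondria packed into the inner segment.

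The tag sequences are shown because they alone separate the rods compared here. In each oligonucleotide, 5′ to 3′, the capitals mark the barcode of 8 bases at positions 22 to 29, which follows a PCR handle. A poly(A) stretch at the 3′ end is captured like the tail of an mRNA. In tag 1 it runs on from the last A of the barcode, and in tag 2 the bases ag lie between them.
tag 1: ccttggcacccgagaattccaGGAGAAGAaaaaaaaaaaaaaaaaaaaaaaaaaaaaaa
tag 2: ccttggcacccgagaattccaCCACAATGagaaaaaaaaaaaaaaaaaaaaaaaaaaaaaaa
The barcodes differ at 5 of 8 positions. The called tag held a median of 82.0% of the tag counts of a rod in tag 1 (median 50 counts) and 82.6% in tag 2 (median 60 counts), and 1 rod called to tag 1 had no count of any tag.

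Rods of tag 1 held 597673 UMIs in all and rods of tag 2 held 356230. A rod of tag 1 had between 566 and 12461 UMIs with a median of 2925, and a rod of tag 2 between 563 and 4996 with a median of 2645.5. Median detected genes were 609 and 550. Each tag was a single pool with no replicate, so no test was made, and every interval given below covers counting error only. Plasmid, animals, sort and staining were joined within each pool and cannot be told apart. To set both tags at the same depth, each rod was thinned to 1000 randomly drawn UMIs, which kept 188 rods of tag 1 and 132 of tag 2 and left out 12 and 4 shallower ones.

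Sag, Pdc, Gngt1 and Gnat1 chose the rods, and the cone genes Arr3, Opn1sw, Opn1mw, Gnat2 and Pde6h kept other barcodes out, so their levels are no check of the label. Of the 8 rod markers that the rule did not use, 7 had a higher share in tag 2, with a median difference of 1.88 points. Pde6b, one of these, was found in 137 of the 200 rods of tag 1 and in 101 of the 136 of tag 2. With the genes of the rule included, the 12 rod markers made up a median of 11.6% of the UMIs of a rod in tag 1 and 12.3% in tag 2.

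The misexpressed genes were looked at first. Whether RNA from the plasmids is counted under Lmna and Lbr was not tested, so these counts are no measure of misexpression. A count of 0 was taken throughout to allow up to 3 counts, called the floor. Lmna (ENSMUSG00000028063, chr3:88480147-88509956, minus strand of mm10) was at 0 UMIs in rods of tag 1 and 8 UMIs in tag 2. The 0 of tag 1 allows up to 1.5% of rods by that floor and 1.83% by the exact interval. The 8 Lmna UMIs of tag 2 lay in 2 of the 136 rods (1.47%), 5 of them in a single rod. Lbr (ENSMUSG00000004880, chr1:181815335-181843046, minus strand) had 8 UMIs in 3 rods of tag 1 and 11 UMIs in 4 rods of tag 2. When rods above the mitochondrial limit were looked at as well, the 144 such rods of tag 2 held 36 further Lmna UMIs in 2 rods, whereas the 40 of tag 1 held none. In the 24 rods of tag 3, which enter no comparison, Lbr had 57 UMIs in 8 rods (33.3%, interval 15.6% to 55.3%) and Lmna had 0. Among these rods Lmna was seen in tag 2 alone. None of the 15 genes listed for the nuclear lamina and envelope reached 20% of the thinned rods of either tag, and together they had 299 UMIs in 100 rods of tag 1 and 241 UMIs in 70 rods of tag 2.

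Rods of tag 2 carried more mitochondrial RNA. Transcripts of the 13 mitochondrial genes, which encode core subunits of the respiratory chain, made up a median of 14.4% of the UMIs of a rod in tag 2 (quartiles 12.4% and 16.2%, highest 17.99%) against 11.01% in tag 1 (7.44% and 13.9%, highest 17.9%). The limit of 18% removed the upper end of both distributions, and more so in tag 2. Without it there were 280 rods of tag 2 with a median of 18.3% and 240 of tag 1 with a median of 12.1%. Rods above 18% made up 51.4% of tag 2 (144 of 280, interval 45.4% to 57.4%) and 16.7% of tag 1 (40 of 240, 12.18% to 21.996%). At the lower end, 31 of 200 rods of tag 1 (15.5%, interval 10.8% to 21.3%) had less than 5% of mitochondrial UMIs, against 3 of 136 of tag 2 (2.21%, 0.457% to 6.31%). The ranges of the tags overlapped throughout, and the difference lay in how many rods sat at each end. No cell called to any tag exceeded 29.7%.

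**Figure D1:**
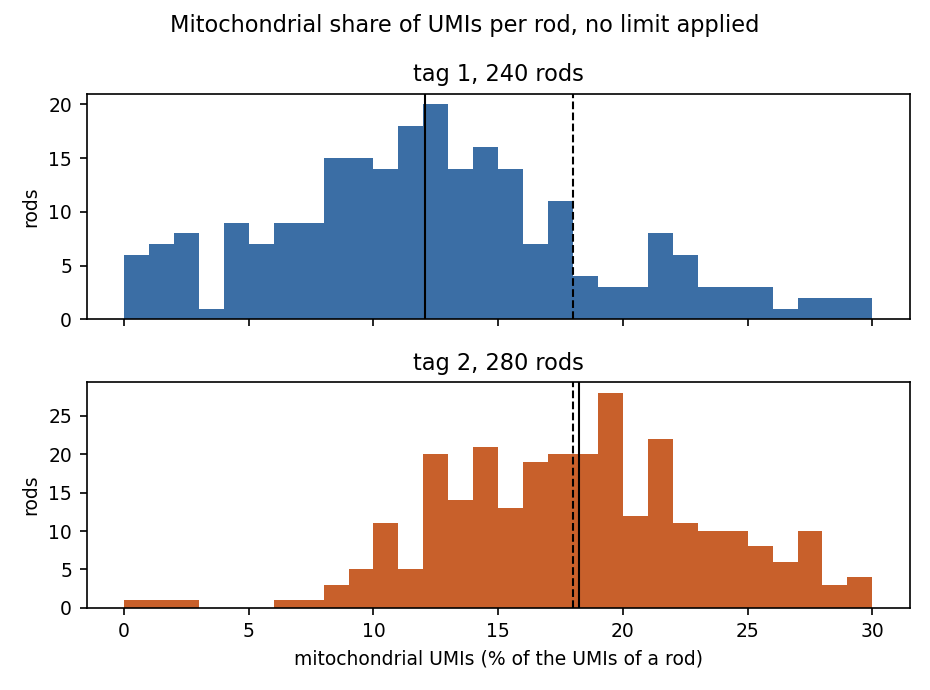
Number of rods (vertical axis) by mitochondrial share of the UMIs of a rod in percent (horizontal axis, bins of 1%) for tag 1 (upper panel) and tag 2 (lower panel), with no limit applied; the dashed line is the limit of 18% and the solid line the median. The median of tag 2 lies at 18.3%, just above the limit, and that of tag 1 at 12.1%.

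Across the transcriptome, rods of tag 2 differed from those of tag 1 by small amounts, and more genes were lower than higher. Of 438 genes found in at least 20% of the thinned rods of either tag, 12 were lower in tag 2 by at least 15 percentage points, which is 2.74% of the genes considered, and 0 were higher by that much (0%). The difference in the share of rods with a UMI, tag 2 minus tag 1, had a median of -2.18 points with quartiles of -6.58 and 2.39, and ran from -23.2 to 14.2. It was below 0 for 267 genes and above 0 for 167. With depth matched on 600 UMIs that were not mitochondrial, the median over 331 genes was -0.71 points, with 4 genes lower and 3 higher by at least 15 points and 2 of the 4 among the 12. Exact 95% intervals of the shares did not overlap for 16 genes, of which 11 were lower and 5 higher in tag 2. These 11 were 10 of the 12 genes past 15 points and Cdk2ap2, and the 5 were Calr, Pmm1, mt-Nd1, mt-Nd2 and mt-Nd4. Cdk2ap2 and Pmm1 were named after their values were seen.

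The count of genes depended on the random draw. When each share was replaced by its expectation over all possible draws of 1000 UMIs, 6 of 426 genes considered were lower by at least 15 points. Of these 6, 5 were among the 12 (Elob, Hbb-bs, Cox8a, Drd4 and 2010107E04Rik). Gnb3 differed by -15.9 points by that measure but was not counted, since its 19.5% of rods in tag 1 missed the minimum of 20%. The sixth was Ndufa7, an accessory subunit of complex I, at -17.5 points by that measure and -12.8 in the single draw. Just inside 15 points lay Uqcrq at -15.2, and just outside lay Cdk2ap2 at -13.9 and Rps4x at -13.9. On the other side the nearest genes were mt-Nd2 at 14.2, mt-Nd4l at 14.1, mt-Nd5 at 14.0 and Calr at 13.5.

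**Figure D2:**
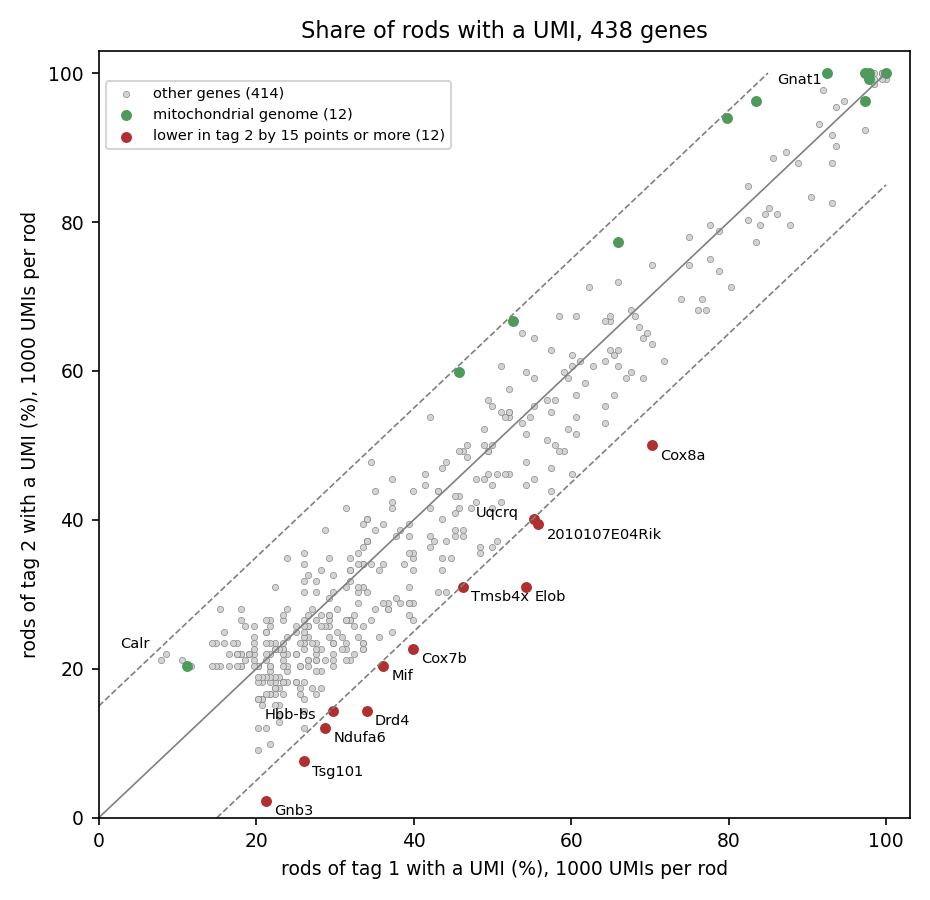
Percent of rods with a UMI in tag 1 (horizontal axis) and tag 2 (vertical axis) after thinning to 1000 UMIs per rod, 1 point for each of 438 genes; the solid line marks equal shares and the dashed lines a difference of 15 points. The 12 genes in red lie beyond the lower dashed line and no gene lies beyond the upper one, to which the mitochondrial genes in green come nearest.

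Elob showed the largest difference. It encodes elongin B, a small ubiquitin-like protein shared by the elongin complex of transcription and by cullin ubiquitin ligases (ENSMUSG00000055839, chr17:23824738-23829136, minus strand). Elob UMIs were found in 102 of 188 thinned rods of tag 1 (54.3%, interval 46.8% to 61.5%) and in 41 of 132 of tag 2 (31.1%, 23.3% to 39.7%). Without thinning the shares were 66.5% and 41.9%, from 686 and 229 UMIs. Rods with the transcript held a median of 4 UMIs in both tags, with up to 27 in tag 1 and 11 in tag 2. It was of similar size among rods with 10% to 18% of mitochondrial UMIs (110 of tag 1 and 121 of tag 2 after thinning), at 51.8% and 33.9%. In 10 of 11 other ways of choosing or thinning the rods it stayed past 15 points, the exception being a stricter call of the tags, at -13.3.

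Several subunits of the respiratory chain that are encoded in the nucleus were lower in tag 2. Cox8a, a subunit of cytochrome c oxidase (ENSMUSG00000035885, chr19:7215153-7217616, minus strand), was found in 70.2% of thinned rods of tag 1 (interval 63.1% to 76.6%) and 50.0% of tag 2 (41.2% to 58.8%), and the shares were 72.7% and 52.9% among rods with 10% to 18% of mitochondrial UMIs. Unthinned, they were 78.0% and 65.4%. Cox7b, another subunit of the same enzyme, went from 39.9% to 22.7%, but among rods with 10% to 18% of mitochondrial UMIs it was at 33.6% and 29.8%. Ndufa6 of complex I was found in 28.7% and 12.1% of rods. For Uqcrq of complex III, at 55.3% and 40.2%, the intervals overlapped. Its shares were 61.8% and 44.6% among rods with 10% to 18% of mitochondrial UMIs. The difference turned to 1.75 points when rods were thinned to 600 UMIs that were not mitochondrial.

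Drd4, the dopamine D4 receptor that photoreceptors use to lower cyclic AMP (ENSMUSG00000025496, chr7:141292006-141296464, plus strand), was found in 34.0% of thinned rods of tag 1 (interval 27.3% to 41.3%) and 14.4% of tag 2 (8.9% to 21.6%). Unthinned, 83 rods of tag 1 held 412 UMIs and 32 rods of tag 2 held 116. Rods above the mitochondrial limit were closer to each other, with 14 of 40 in tag 1 and 46 of 144 (31.9%) in tag 2, and with them the difference was -10.3 points. In 34 barcodes with markers of Müller glia, the support cells of the retina, which should lack Drd4, 5.88% held a UMI at a median of 1043.5 UMIs. These barcodes had at least 1% of UMIs from glial markers and under 1% from Sag, Pdc, Gngt1 and Gnat1. No mitochondrial limit was applied to them, and their median mitochondrial share was 37.5%, so they are no matched background for the rods.

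Gnb3, the transducin beta subunit of cones and ON bipolar cells (ENSMUSG00000023439, chr6:124834240-124840275, minus strand), had the lowest share in tag 2 relative to tag 1 among the 12 genes. Its UMIs were found in 40 of 188 thinned rods of tag 1 (21.3%, interval 15.7% to 27.8%) and 3 of 132 of tag 2 (2.27%, 0.5% to 6.5%). Unthinned, 53 of 200 rods of tag 1 held 289 UMIs, with up to 21 in a rod, and 9 of 136 rods of tag 2 held 19 UMIs, 6 of those rods with a single UMI. None of the 34 Müller glia barcodes held Gnb3, which allows a share of up to 8.82%. The share in tag 2 was within that limit and the share in tag 1 above it. Those barcodes were not matched to the rods in mitochondrial share, so no background level is read from them. Gnb3 gave 289 of the 316 UMIs of the 10 cone markers in tag 1 and Arr3, the cone arrestin, 15, but the choice of rods limited Arr3 and 4 other genes of that list. The rods of tag 1 with Gnb3 were deeper, with a median of 3328 UMIs against 2720. Among rods with 10% to 18% of mitochondrial UMIs the shares were 19.1% and 3.3%. Of the genes within 50000 bases, only Tpi1, a glycolytic enzyme whose gene lies 19944 bases away, was found in 20% of rods, at 28.2% in tag 1 and 17.4% in tag 2.

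The other genes past 15 points had mixed roles. Tsg101, a subunit of the ESCRT machinery that sorts membrane proteins for degradation, was found in 26.1% of rods of tag 1 and 7.6% of tag 2, although the difference was -9.2 points among rods with 10% to 18% of mitochondrial UMIs. Mif, a cytokine that also acts as a tautomerase, was found in 36.2% and 20.5% of rods. For 2010107E04Rik the shares were 55.9% and 39.4%. For Tmsb4x, which binds actin monomers, they were 46.3% and 31.1% with overlapping intervals, and in 1 of 11 other settings the gene passed 15 points. Outside Elob and Hbb-bs the calls often depended on the choice of rods or depth. With the minimum of 20% of rods kept, Cox8a passed 15 points in 8 of 11 other settings and Drd4 in 6. For 2010107E04Rik and Mif the count was 5 each, for Gnb3 4, for Cox7b and Ndufa6 3 each, for Tsg101 2 and for Uqcrq 1. Gnb3 also differed by -15.9 points in the expectation over all draws and by -15.8 among rods with 10% to 18% of mitochondrial UMIs. In both, its share in tag 1 missed 20%. All 12 genes also had a lower summed level in tag 2, as CPM (the UMIs of a gene over all rods of a tag, scaled to the same total in both tags).

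**Figure D3:**
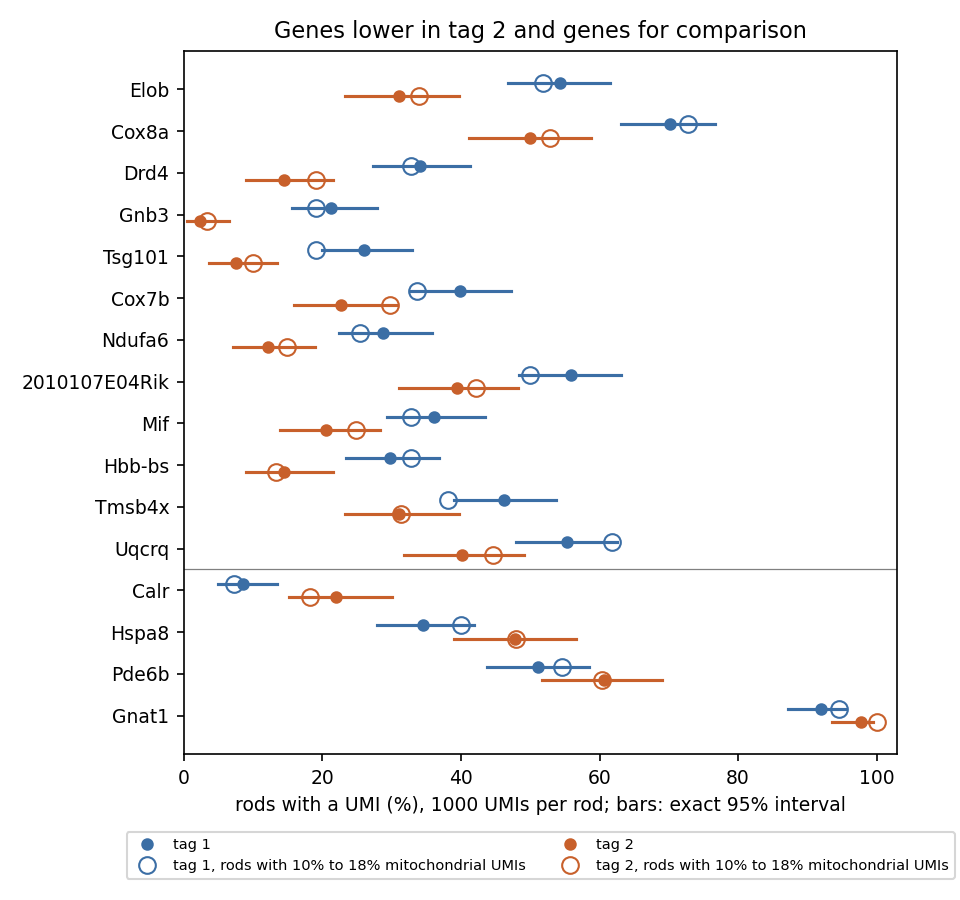
Percent of thinned rods with a UMI (horizontal axis) in tag 1 (blue) and tag 2 (orange) with exact 95% intervals (bars) for the 12 genes lower in tag 2 by 15 points or more (above the line) and 4 genes for comparison; open circles give the share among rods with 10% to 18% of mitochondrial UMIs. For Elob, Cox8a, Gnb3, Hbb-bs and Uqcrq the open circles of the tags stay as far apart as 15.8 to 19.8 points, whereas for Cox7b they come within 3.9 points.

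Genes of the light response were level or slightly higher in tag 2. Of the genes listed for the activation of phototransduction, 7 were not used to choose the rods, and all 7 had a higher share in tag 2, with a median difference of 2.16 points against -2.18 over all genes considered. None passed 15 points. Cngb1, a subunit of the rod channel, was found in 42.0% of rods of tag 1 and 53.8% of tag 2. Pde6b was found in 51.1% and 60.6%. Intervals overlapped for both, and among rods with 10% to 18% of mitochondrial UMIs Cngb1 was lower in tag 2 by 3.4 points. Of 9 genes listed for shut-off and calcium feedback, 6 were above 0 and 2 below, with a median of 0.16 points. They ranged from Rgs9, which speeds the turn-off of transducin, at 31.4% and 21.2%, to the exchanger Slc24a1 at 55.3% and 64.4%.

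Outer segment genes followed the same direction, with 11 of 12 above 0 and a median of 1.99 points. Rtbdn was found in 58.5% of rods of tag 1 and 67.4% of tag 2, and Impg1 of the matrix between photoreceptors in 18.6% and 25.8%. Their CPM were higher in tag 2 as well, by 0.56 and 0.58 on the log2 scale. Photoreceptor transcription factors (5 genes considered, 3 above 0, median 0.81 points) and genes of the ribbon synapse (6 genes, 3 above 0, median -0.15) lay near 0. Neurod1, at 39.4% and 31.1%, and the synaptic syntaxin Stx3, at 44.1% and 37.1%, were the furthest from it, and no gene of these lists passed 15 points. The median of the transcription factors was -5.88 points without thinning, over 7 genes, and -7.47 in rods without Hbb-bs.

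Gene groups are read against all genes considered, of which 267 of 438 were lower in tag 2 and 2.74% lower by 15 points or more. Nuclear genes of the respiratory chain had medians below that of all genes, and the mitochondrial genes one above it. Of 23 genes of complex I, 18 were lower in tag 2, with a median difference of -6.30 points and 1 past 15 points. Of 31 genes of complexes II to V, 26 were lower, with a median of -7.75 points and 3 past 15 points. These medians were -8.10 and -7.52 points among rods with 10% to 18% of mitochondrial UMIs, where the share of mitochondrial RNA was limited to the same range in both tags, and -2.96 and -6.50 when rods were thinned to 600 UMIs that were not mitochondrial. Among rods without a UMI of Hbb-bs, described below, the median of complexes II to V was -1.91 points. Atp5b, the catalytic beta subunit of ATP synthase, went the other way by 8.8 points. Of 12 mitochondrial genes considered, 10 were higher in tag 2, with a median of 8.37 points, but among rods with 10% to 18% that median was 0 points, with 5 genes above 0 and 3 below. These genes make up the mitochondrial share described above, so both are the same measurement.

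Ribosomal protein genes lay lower in tag 2 by smaller steps. Of 69 considered, 54 were below 0 and 15 above, with a median of -4.32 points and none past 15 points. Rps4x was found in 60.1% and 46.2% of rods and Rpl26 in 50.0% and 36.4%. The 5 genes listed for ubiquitin and elongin were all lower, with a median of -9.11 points. The 2 proteasome genes considered, Psma3 at -3.6 points and Psmb6 at -3.0, were also lower. Glycolytic genes were near the other genes, with 7 of 10 below 0 and a median of -0.84 points, from Tpi1 at -10.8 to Pgam1 at 5.4.

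**Figure D4:**
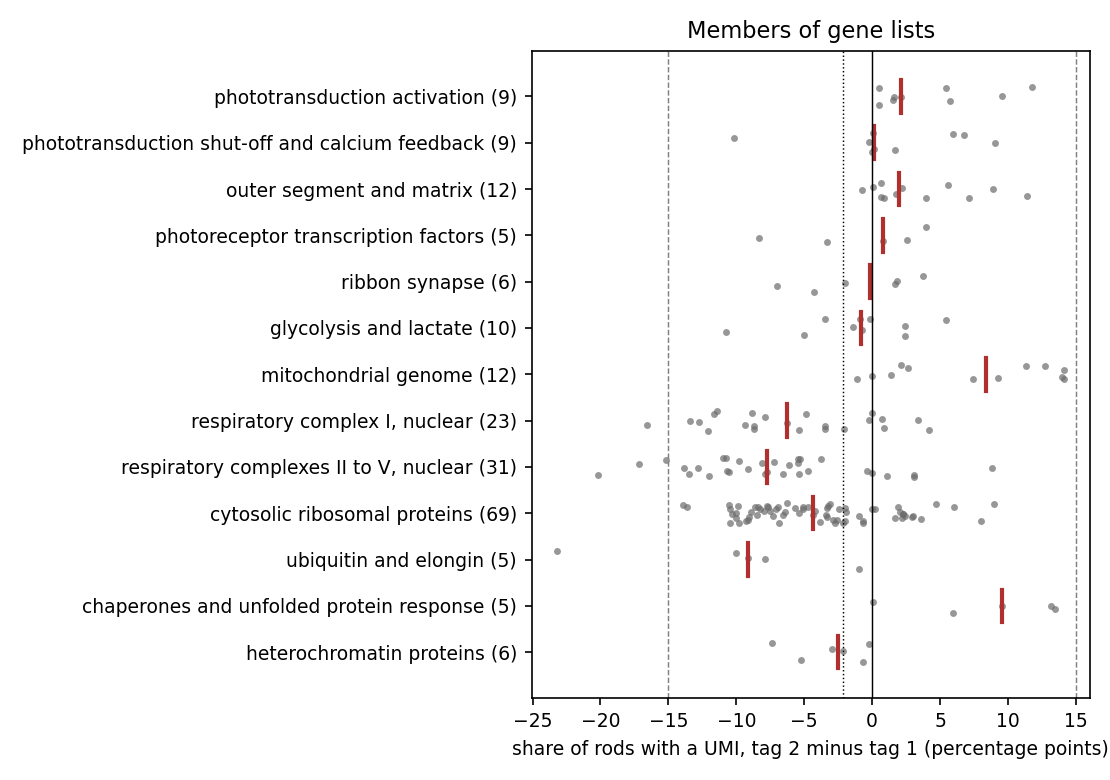
Difference in the share of rods with a UMI, tag 2 minus tag 1, in percentage points (horizontal axis) for the considered members of 13 gene lists, 1 point per gene with the number of genes in brackets; red bars are list medians, the dotted line is the median of all 438 genes (-2.18) and dashed lines mark 15 points. Medians run from -9.11 for ubiquitin and elongin to 9.54 for chaperones, and both nuclear respiratory lists lie left of the dotted line.

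Chaperones of the endoplasmic reticulum and cytosol were the highest of the lists. All 5 genes considered were above 0, with a median of 9.54 points, which was 4.78 points in the expectation over all draws and 0.37 points when every list member with a UMI was counted. Calr, the calcium-binding lectin chaperone calreticulin, was found in 8.5% of thinned rods of tag 1 (interval 4.9% to 13.5%) and 21.97% of tag 2 (15.2% to 30.0%). Its CPM was higher by 1.44 on the log2 scale (96 UMIs in 28 rods against 156 in 38), and its difference stayed between 10.9 and 15.7 points in all 11 other settings. Hsp90b1 was found in 26.1% and 35.6% of rods and Hspa8 in 34.6% and 47.7%. For Hspa8 the difference was 1.38 points when rods rich in Malat1, described below, were left out. Of the wider list of 23 genes, most were too rare to be considered, among them Hspa1a, a gene induced by heat and handling, with 19 UMIs in tag 1 and 7 in tag 2.

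Of the heterochromatin proteins, 6 genes were considered and all lay below 0, with a median of -2.55 points, close to that of all genes. Cbx3, which encodes heterochromatin protein 1 gamma, was found in 36.2% of rods of tag 1 and 28.8% of tag 2, while the interval of its log2 CPM ratio ran from -0.27 to 0.26 around a level value. H3f3a, which encodes histone H3.3, was found in 93.1% and 87.9% of rods and was lower in CPM by 0.31 on the log2 scale. Immediate early genes and retinal injury genes were too rare to be considered. The former held 188 UMIs in 62 rods of tag 1 and 72 UMIs in 18 rods of tag 2, and the latter 112 UMIs in 21 rods and 31 UMIs in 7 rods.

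For genes found in nearly all rods the share cannot move, and their summed CPM was compared instead. Of 34 genes found in at least 80% of thinned rods of both tags, 0 were higher (0%) and 0 lower (0%) in tag 2 by 1.5-fold or more. Gnat1, the alpha subunit of rod transducin and a gene of the rod rule, had 3018 UMIs in tag 1 and 2244 in tag 2, a log2 ratio of 0.32 (interval 0.24 to 0.40). Per 10000 UMIs of a rod, its level ran from 0 to 174 in tag 1 with a median of 45.0, and from 4.98 to 184 in tag 2 with a median of 60.5, so the tags overlapped. Gnb1 had a log2 ratio of 0.32, while Sag, the rod arrestin, was at 0.06 and Pdc, which binds free transducin, at -0.17. The range ran from -0.34 for Cst3, which encodes the protease inhibitor cystatin C, to 0.54 for mt-Nd4. Without the mitochondrial limit 3 genes were higher in tag 2 by 1.5-fold or more. The intervals treat UMIs as independent, although UMIs of a gene were grouped within rods.

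The beta globin gene Hbb-bs (ENSMUSG00000052305, chr7:103826534-103828096, minus strand), the oxygen carrier of red blood cells, was found in 29.8% of thinned rods of tag 1 (interval 23.4% to 36.9%) and 14.4% of tag 2 (8.9% to 21.6%), and the expectation over all draws was 34.3% and 12.04%. Unthinned, 92 rods of tag 1 held 832 UMIs, with up to 72 in a rod, and 32 rods of tag 2 held 47 UMIs, none with more than 4. Hbb-bt, the other beta globin gene, had 120 and 5 UMIs, and the alpha globin genes and Alas2 were at 0 in both tags. In the Müller glia barcodes, with their higher mitochondrial share, 5.88% held Hbb-bs. Among the 108 rods of tag 1 and 104 of tag 2 without an Hbb-bs UMI, 442 genes were considered. Of these, 16 were lower in tag 2 by at least 15 points and 4 higher, and 3 of the 16 were among the 12. Elob was at -26.8 points there and Cox8a at -5.2. This setting and the next were chosen after seeing the data.

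Malat1, a long RNA retained in the nucleus, had 2916 UMIs in 23 rods of tag 1 and 144 UMIs in 32 rods of tag 2. Since its share was higher and its CPM lower in tag 2, no order between the tags is read from it. Its distribution differed, however, with 17 rods of tag 1 and 1 of tag 2 at 100 or more Malat1 UMIs per 10000, a limit set after the values were seen. Those 17 rods stood apart in other measures. They had a median of 5.47% of mitochondrial UMIs and 739 detected genes, whereas rods of tag 1 without Malat1 had medians of 11.4% and 591. None of the 17 held an Hbb-bs UMI, and their rod markers made up a median of 5.64% of UMIs against 11.8% in the other 183 rods of tag 1. Müller glia markers as a list were found in 12 of the 17 and in 84 of the other 183. Of that list, Glul was found in 8 and 6 and Apoe in 3 and 0. Bipolar cell markers, Calm2 among them, were found in 14 and 79, and the bipolar marker Pcp2 in 3 and 0. Cone markers were found in 3 and 51, amacrine cell markers in 0 and 2, and microglia markers in 0 and 5. Without these rods 22 of 441 genes considered were lower in tag 2 by at least 15 points and 0 higher, and 8 of the 22 were among the 12 above. Elob, Cox8a, Drd4 and Gnb3 were still past 15 points. Among all other rods Malat1 was found in 6 of 183 of tag 1 and 31 of 135 of tag 2.

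**Figure D5:**
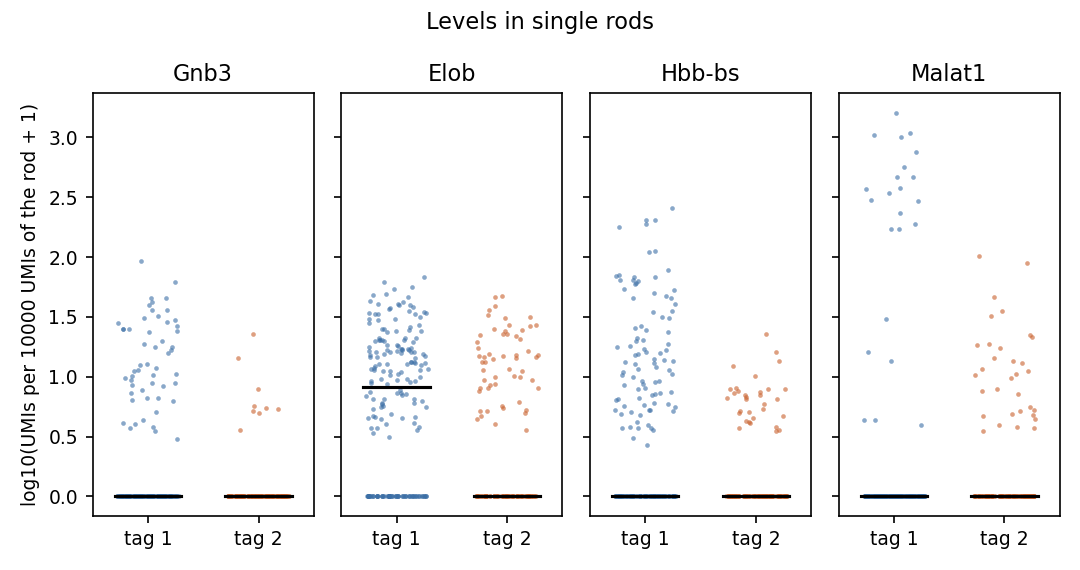
Level in each rod as log10 of UMIs per 10000 UMIs of the rod plus 1 (vertical axis) for Gnb3, Elob, Hbb-bs and Malat1 in tag 1 (blue, 200 rods) and tag 2 (orange, 136 rods); points are rods, spread sideways at random, and black bars are medians. Most rods have no UMI of Gnb3, Hbb-bs or Malat1, and the high Malat1 values above 2 on this axis belong to 17 rods of tag 1 and 1 of tag 2.

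Among other noncoding RNAs, Mir124-2hg, a host transcript of the neuronal microRNA miR-124, was found in 39.9% of rods of tag 1 and 28.8% of tag 2, and the difference was 2.3 points upward among rods with 10% to 18% of mitochondrial UMIs. Neat1 had 1 UMI in tag 1 and 0 in tag 2.

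Markers of other retinal cells were scarce in both tags. Of 11 bipolar cell markers, 6 were at 0 in tag 1 and 7 in tag 2, and 317 of the 358 UMIs of tag 1 and 149 of the 157 of tag 2 belonged to Calm2, a calmodulin gene also used by photoreceptors, found in 30.9% and 22.7% of rods. Clu, which gave 357 of the 466 Müller glia UMIs of tag 1 and 193 of the 209 of tag 2, was found in 30.9% and 24.2%. Of the remaining lists, 4 had a single member with any UMI and the rest at 0. They were amacrine cells (26 and 2 UMIs), ganglion cells (27 and 10), microglia (9 and 5) and endothelium (2 and 0), and the pigment epithelium list had 2 UMIs and 0. Summed bipolar markers reached at most 0.541% of the UMIs of a rod in tag 1 and 0.473% in tag 2, and Müller glia markers 1.09% and 1.07%. Their part in the differences above was not tested.

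Sex-linked genes differed between the tags in rods at their full depth. A UMI of at least 1 of 4 genes on the Y chromosome was found in 23 of 200 rods of tag 1 (11.5%) and 2 of 136 of tag 2 (1.47%), and in 26 of 240 and 9 of 280 without the mitochondrial limit. Xist, which female cells express, was found in 1 and 0 rods. The mixture of animals behind each tag was thus not shown to be alike, and its part in the other differences was not tested.

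Of the 12 genes lower in tag 2, 9 had shorter transcripts than the median gene, and Drd4, Tsg101 and Gnb3 had longer ones. The longest annotated transcript had a median of 932.5 bases among the 12 genes and 1829.5 among all 438. Among the 426 genes outside the mitochondrial genome, the share difference rose with transcript length (Spearman correlation 0.31 across genes of the same rods, which are not independent). The 163 genes with transcripts under 1500 bases had a median difference of -5.11 points and the 263 longer ones -0.15. Of the short genes, the 37 respiratory chain genes were at -7.19, the 47 ribosomal genes at -4.24 and the 79 in neither list at -4.61. The nuclear respiratory and ribosomal lists are thus also lists of short transcripts, with medians of 971, 927 and 1109 bases. The lists for phototransduction activation and the outer segment, higher in tag 2, are lists of long ones, with medians of 3143 and 4210.5 bases. The part of transcript length in the differences of all these lists was not tested.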

How the data were processed

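The authors aligned the reads to mm10 with Cell Ranger 6.1.2 (the matrix header names 3.1.0) and used Scanpy 1.9.1, per the labels. No source used here names the annotation release. They deposited UMI counts per gene and barcode, tag counts per barcode, and a tag call with a singlet probability given as a fraction, of which the call alone was used. Coordinates are from GENCODE M21, which held 31011 of 31053 gene identifiers.

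Each rod was thinned to 1000 UMIs without replacement, and genes in at least 20% of thinned rods of either tag were considered. A difference of 15 percentage points was the size of a call. Genes in at least 80% of rods of both tags were compared by summed CPM, with a call at 1.5-fold. Intervals are exact 95% Clopper-Pearson intervals, and those of a CPM ratio come from the same method on the split of a gene's UMIs between the tags, with 0.5 UMIs added to each sum for the ratio itself. Doublets called by the authors' tags were left out, and Scrublet was an alternative. Named genes were the genes past a call in each direction, the 3 considered members of each list furthest from 0, markers of other cells found in at least 5% of rods, and Lmna and Lbr. The members, lists and rules were chosen with earlier results of these data known. Python 3.11.15, numpy 2.4.6, pandas 2.3.3, SciPy 1.17.1 and scanpy 1.11.5 were used, and the scripts were tested on simulated data. The values of some list members are not reported here.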

Additional observations from a re-analysis of the deposited data

Results flagged for a closer look

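Rods of tag 3 entered no comparison because there were 24 of them, with a median of 2649.5 UMIs. Of the 12 genes lower in tag 2, 11 were seen there, without thinning, in more than the 3 rods that a count of 0 allows. Rods of tag 2 passed that limit as well, with Gnb3 in 9 of 136, so it does not set tag 3 apart from tag 2. Gnb3 was found in 58.3% of the rods of tag 3 (14 of 24, exact interval 36.6% to 77.9%), Cox8a in 91.7%, 2010107E04Rik in 66.7% and Tmsb4x in 58.3%. Cox7b was found in 54.2%, Uqcrq and Elob in 45.8% each, Tsg101 in 29.2%, Mif and Ndufa6 in 25% each and Drd4 in 16.7%. Hbb-bs was found in 3 of the 24 (12.5%), which is no more than that limit. Unthinned shares in tag 1 and tag 2 were 26.5% and 6.62% for Gnb3 and 78.0% and 65.4% for Cox8a. They were 66.5% and 41.9% for Elob and 41.5% and 23.5% for Drd4. Tag 3 was thus above both for Gnb3 and Cox8a, between them for Elob and below both for Drd4. These shares were not set against the other tags by any test.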

How the results depend on the processing

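No paired analysis was possible because each tag was 1 pool of cells with no replicate, and for the same reason no replicate could be left out. Of the values that answer a comparison, 213 moved little under the alternatives and 53 moved further. The number of genes lower in tag 2 was 12 of 438 considered as reported. It was 22 of 716 without thinning, 19 of 555 at 1500 UMIs, 6 of 426 in the expected share and 4 of 331 at 600 non-mitochondrial UMIs. Of the same 438 it was 48 at 10 points and 2 at 20 points, and without the rods rich in Malat1 it was 22 of 441. The number higher, 0 as reported, was 1 without thinning (of 716), without the mitochondrial limit (of 406), with stricter tag calls (of 454) and with rod genes at 2% of UMIs (of 443). It was 2 of 450 among rods with 10% to 18% of mitochondrial UMIs and 3 of 331 at 600 non-mitochondrial UMIs. In rods without Hbb-bs it was 4 of 442, and at 10 points 14 of 438. Leaving out the mitochondrial limit gave 3 genes higher by CPM and a median mitochondrial share of 18.3% in tag 2. The cause of these changes was not tested.

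List medians are in points. For chaperones the median was 4.11 with Scrublet doublets removed, 4.98 with stricter tag calls, 0.37 over every gene, 4.78 in the expected share, 4.92 at a filter of 10%, 4.47 without the limit, 2.65 without thinning, 3.02 within 10% to 18%, 3.52 at 1500 UMIs and 2.41 without rods rich in Malat1. For ubiquitin and elongin it was -12.0 with stricter calls, -6.56 over every gene, -6.73 without the limit, -10.6 without thinning, -7.93 within 10% to 18% and -7.21 at 600 non-mitochondrial UMIs. For transcription factors it was -4.06 with stricter calls, -5.88 without thinning, -5.30 at 1500 UMIs, -2.42 at 600 non-mitochondrial UMIs and -7.47 in rods without Hbb-bs. For outer segment genes it was 4.74 with doublets removed, 5.75 without the limit, 4.68 at 600 non-mitochondrial UMIs and 6.54 in rods without Hbb-bs. For phototransduction activation it was 5.01 with doublets removed, 5.82 with rod genes at 2% and 4.68 at 600 non-mitochondrial UMIs. Synapse genes were at -4.43 without thinning and -3.48 at 1500 UMIs, glycolysis at 1.99 with doublets removed, heterochromatin at -0.53 over every gene and -0.50 without rods rich in Malat1, and mitochondrial genes at 0 within 10% to 18%. In rods without Hbb-bs, shut-off genes were at 3.42 and complexes II to V at -1.91. Uqcrq turned to 1.75 at 600 non-mitochondrial UMIs and to 3.00 in rods without Hbb-bs. The settings on Malat1 and Hbb-bs were chosen after seeing the data.

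With 188 and 132 rods at 1000 UMIs, Lmna and Lbr lay near the floor of 1.60% and 2.27% of rods that a count of 0 allows.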
